A study of Mus musculus with 6 samples.

Results

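The 10 genes described here are the insulin-responsive glucose transporter gene *Slc2a4* and 9 genes of the contractile, energy and oxygen-carrying machinery of striated muscle. The 9 are *Acta1*, *Ckm*, *Myh1*, *Myh2*, *Myh7*, *Mylpf*, *Tnnt3*, *Tnni2* and *Mb*. For short the 9 are called the contractile genes, though *Ckm* and *Mb* serve energy and oxygen supply. The whole set made up 10 of 56691 genes in a table of liver RNA-seq counts. Each was found by matching its Ensembl identifier to its symbol. *Slc2a4* was chosen by its read counts, which ran from 2 to 622 among the libraries, and the other 9 were chosen to show how much muscle RNA each liver library held. The reads of *Slc2a4* are therefore given as a description, with no test.

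The study asked how the loss of ChREBP (carbohydrate response element binding protein, encoded by *Mlxipl*), a transcription factor that responds to sugar, from hepatocytes alters the liver of pregnant mice fed fructose. Poly(A) RNA was sequenced from the livers of 3 KPF mice and 3 WPF mice. All dams received a high-fructose diet (HFrD, 70% fructose with 10 kcal% fat) from Day 0 to Day 17 of pregnancy and carried loxP-flanked *Chrebp* on both chromosomes. KPF mice (hChrebp KO) also carried the Alb-Cre transgene, which is driven by the albumin promoter and acts in hepatocytes, whereas WPF mice carried no Cre and are named WT in the labels. The age of the dams is not given in the sources used here. The KPF libraries are numbered 1 to 3 and the WPF libraries 2 to 4. The shared numbers 2 and 3 belong to different dams. The study describes the 3 libraries of each group as biological replicates.

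Skeletal muscle contracts when myosin, a motor protein, pulls on actin filaments, and troponin switches this on when calcium is released. Fast and slow fibres use different genes for the same parts, so the mix of myosin and troponin transcripts reports the fibre types present. GLUT4, the product of *Slc2a4*, is stored in vesicles and moves to the surface of muscle and fat cells when insulin rises, while hepatocytes take up glucose mainly through GLUT2 (*Slc2a2*). The contractile genes used here are hallmarks of muscle fibres and are not part of the known programme of hepatocytes.

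The libraries held 10694496 to 14496630 reads counted to genes. *Mlxipl* lay between 179.4 and 848.7 CPM (read counts scaled to a common library size, with TMM factors) in the KPF libraries and between 879.1 and 1260.3 CPM in the WPF libraries, a log2 difference of -0.84 ± 0.53 (SE, edgeR quasi-likelihood test, unadjusted p = 0.147, adjusted p = 0.589). The knockout allele lacks a single exon, so a count over the whole gene checks the genotype only in part. Hepatocyte genes dominated every library, with *Alb* at 681909 to 1720757 reads, and the 10 hepatocyte genes listed summed to 86700 CPM in KPF 2 and to 94200 to 186000 CPM in the other 5 libraries. Over 10866 genes with a mean FPKM (fragments scaled to exonic length and library size) of at least 1, edgeR's adjusted p fell under 0.05 for 0 genes and its unadjusted p for 1091, while DESeq2's adjusted p did so for 156. A gene is called here where its unadjusted p was under 0.05 and its change at least 1.5-fold.

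The data showed muscle transcripts in quantity in a single library, KPF 2. The 9 contractile genes summed to 63651 reads there (95% exact Poisson interval 63160 to 64150). They summed to 91 reads in KPF 1 (73.27 to 111.7) and 77 in KPF 3 (60.77 to 96.24). In the WPF libraries the sums were 208 in WPF 2 (180.7 to 238.3), 177 in WPF 3 (151.9 to 205.1) and 111 in WPF 4 (91.31 to 133.7). These reads made up 0.56% of KPF 2 and 0.000666% to 0.0016% of each other library. The intervals cover counting error only. The other KPF libraries and the WPF libraries held traces of these genes, and KPF 2 stood apart from its own group. Since the samples are bulk liver, fewer or more cells of a type and less or more RNA per cell cannot be told apart.

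**Figure D1:**
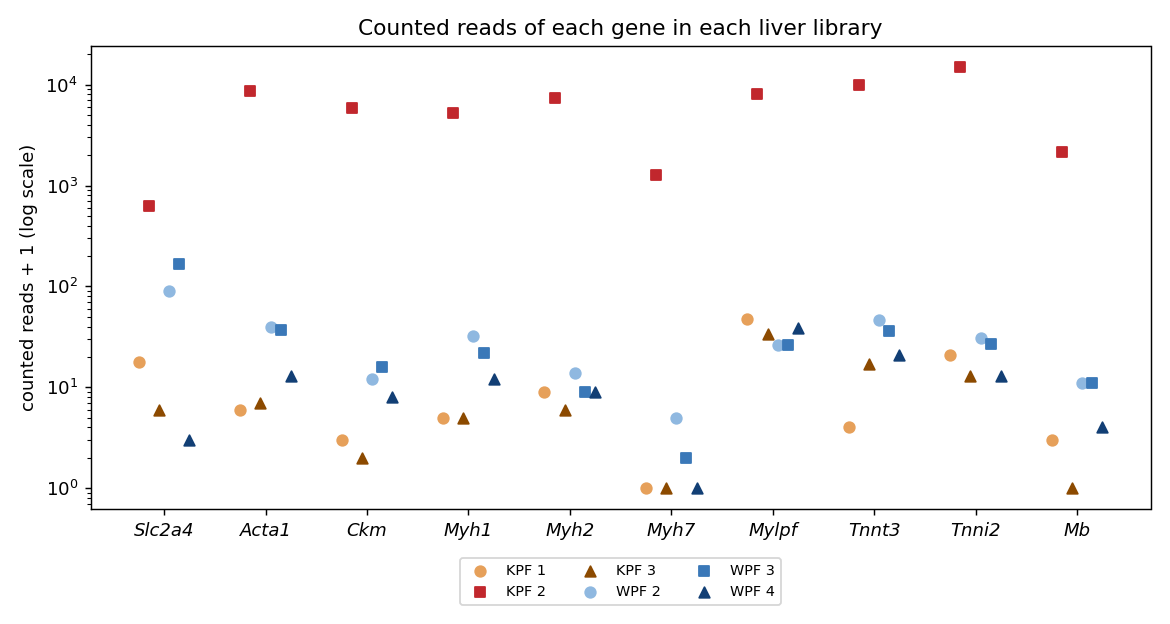
Reads of the 10 genes in each of the 6 liver libraries, on a log axis. KPF 2 holds 622 reads of *Slc2a4* and 1261 to 14967 reads of each contractile gene, while no other library exceeds 47 reads of a contractile gene.

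The actin and myosin genes build the filaments themselves. *Acta1* (ENSMUSG00000031972, GRCm39 chr8:124618508-124621490, minus strand), the actin of the skeletal muscle thin filament, had 5, 8702 and 6 reads in KPF 1, 2 and 3 and 39, 36 and 12 reads in WPF 2, 3 and 4. KPF 2 was 228-fold above the highest other library in CPM, and the other KPF libraries lay below all 3 WPF libraries. The fitted difference between the groups was 6.88 ± 3.19 on the log2 scale (SE, n = 3 per group, edgeR adjusted p = 0.525), and this SE reflects the single high library.

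The myosin heavy chains are the motors, and their isoforms set the speed of a fibre. *Myh2* (ENSMUSG00000033196, chr11:67061853-67088343, plus strand), the chain of fast oxidative IIa fibres, had 8, 7421 and 5 reads in KPF and 13, 8 and 8 in WPF. *Myh1* (ENSMUSG00000056328, chr11:67090878-67115401, plus strand), the chain of fast IIx fibres and the neighbour of *Myh2*, had 4, 5193 and 4 reads in KPF and 31, 21 and 11 in WPF. *Myh7* (ENSMUSG00000053093, chr14:55208141-55232083, minus strand), the chain of slow fibres and also of the ventricle, had 0, 1261 and 0 reads in KPF and 4, 1 and 0 in WPF. All 3 chains were high in KPF 2 and at or near the limit of detection elsewhere, where 0 reads allow up to 3. Compared per length, *Myh2* made up 48.4% of the FPKM of the 4 adult chains in KPF 2, *Myh1* 38.1%, *Myh7* 6.81% and *Myh4*, the chain of the fastest IIb fibres, 6.7%. The sarcomeric myosin genes are close in sequence, so reads may have been split among them. The chains of developing muscle were nearly absent, with 2, 0, 1, 2, 2 and 0 reads of the embryonic *Myh3* in KPF 1, 2 and 3 and WPF 2, 3 and 4, and 6 reads of the perinatal *Myh8* in KPF 2 and 0 elsewhere.

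The regulatory proteins of the filaments were the most abundant of the set. *Mylpf* (ENSMUSG00000030672, chr7:126808062-126813470, plus strand), the regulatory light chain of fast myosin, had 47, 8089 and 33 reads in KPF and 25, 25 and 38 in WPF. *Tnnt3* (ENSMUSG00000061723, chr7:142052573-142069746, plus strand), the fast troponin subunit that binds tropomyosin, had 3, 10034 and 16 reads in KPF and 45, 35 and 20 in WPF. *Tnni2* (ENSMUSG00000031097, chr7:141995545-141998147, plus strand), the inhibitory subunit of fast troponin, had 20, 14967 and 12 reads in KPF and 30, 26 and 12 in WPF. In FPKM, *Tnni2* was the highest of the 10 genes in KPF 2 at 879.44, followed by *Mylpf* at 669.98, *Tnnt3* at 557.55 and *Acta1* at 498.33. *Mylpf* was also the highest of the 9 in the KPF 1 library at 4.14 FPKM, against 1.25 for *Tnni2*, and its KPF and WPF ranges in CPM did not overlap (3.17 to 716 against 1.76 to 2.23).

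The energy and oxygen genes completed the set. *Ckm* (ENSMUSG00000030399, chr7:19138701-19156766, plus strand), the muscle creatine kinase that buffers ATP, had 2, 5845 and 1 reads in KPF and 11, 15 and 7 in WPF. *Mb* (ENSMUSG00000018893, chr15:76899687-76934870, minus strand), which encodes the oxygen-binding myoglobin, had 2, 2139 and 0 reads in KPF and 10, 10 and 3 in WPF. KPF 2 was 491-fold above the highest other library for *Ckm* and 219-fold for *Mb*. KPF 1 and KPF 3 lay below every WPF library for *Ckm*, and for *Mb* KPF 1 (0.191 CPM) was about level with WPF 4 (0.176 CPM).

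Mouse promoter windows were read to show what letters these co-detected genes share near their starts, from 250 bases before to 50 bases after the start (RefSeq, GRCm38.p6, a different build from the coordinates above). The table of windows held 10 windows for 7 of the 10 genes, and none was matched for *Slc2a4*, *Tnnt3* or *Tnni2*. The 4 printed are those of the genes with a single window and the most reads in KPF 2, *Acta1* (chr8:123894726-123895025, minus strand), *Mylpf* (chr7:127211358-127211657, plus strand), *Myh2* (chr11:67170777-67171076, plus strand) and *Ckm* (chr7:19410844-19411143, plus strand). Capitals mark the matches, on either strand, to the E-box CAGCTG, to TATAAA, and to the CArG box and the MEF2 site, whose patterns hold alternative letters.
Acta1: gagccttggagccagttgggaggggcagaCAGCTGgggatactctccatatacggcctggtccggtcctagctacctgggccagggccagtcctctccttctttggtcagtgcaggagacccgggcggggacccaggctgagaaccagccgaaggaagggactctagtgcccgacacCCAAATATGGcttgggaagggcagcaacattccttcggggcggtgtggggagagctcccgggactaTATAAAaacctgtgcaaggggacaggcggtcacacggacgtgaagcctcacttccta
Mylpf: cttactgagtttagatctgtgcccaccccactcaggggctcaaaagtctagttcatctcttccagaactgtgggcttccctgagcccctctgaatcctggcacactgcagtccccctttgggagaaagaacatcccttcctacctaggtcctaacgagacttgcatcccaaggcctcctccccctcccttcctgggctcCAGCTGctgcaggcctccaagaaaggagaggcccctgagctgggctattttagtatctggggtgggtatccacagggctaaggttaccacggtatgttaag
Myh2: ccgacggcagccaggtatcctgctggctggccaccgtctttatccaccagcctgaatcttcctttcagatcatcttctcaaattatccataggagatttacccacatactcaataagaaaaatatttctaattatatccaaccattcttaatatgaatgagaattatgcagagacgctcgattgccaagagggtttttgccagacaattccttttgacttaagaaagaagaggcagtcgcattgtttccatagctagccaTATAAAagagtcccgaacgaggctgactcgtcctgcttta
Ckm: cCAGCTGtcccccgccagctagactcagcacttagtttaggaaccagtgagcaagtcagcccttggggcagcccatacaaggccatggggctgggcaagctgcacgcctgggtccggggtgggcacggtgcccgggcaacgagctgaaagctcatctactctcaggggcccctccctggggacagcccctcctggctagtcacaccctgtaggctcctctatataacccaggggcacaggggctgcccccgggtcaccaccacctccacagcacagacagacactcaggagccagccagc
CAGCTG, which is its own reverse complement and a form of the E-box bound by myogenic factors such as MyoD, stood in 5 of the 10 windows of these genes and in 16.3% of all 32851 windows. TATAAA stood in 3 of the 10 windows and in 13.6% of all. The CArG box, the site of serum response factor, matched in 1 window (*Acta1*) and in 1.63% of all, and the MEF2 site in 1 (*Myh1*) and in 3.19% of all. The MEF2 site can overlap TATAAA, as it did in *Myh1*. Windows of *Mb* and of *Myh7* overlap in part, so that 2 of the 5 CAGCTG windows hold the same *Mb* site, and matches are a description of letters only.

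Between the groups, 1 of the 9 contractile genes was called, against a background of 9.15% of all tested genes called in either direction and 5.18% called higher in KPF. That gene was *Mylpf*, at a log2 difference of 6.87 ± 2.58 (SE, edgeR unadjusted p = 0.0438, adjusted p = 0.491; exact two-sided permutation p = 0.1, the smallest that 3 against 3 allows). The other 8 overlapped between the groups and were not called. The share of all genes whose groups did not overlap was not counted, so the overlap is a description only. The fitted differences of these 8 ran from 6.61 (*Myh1*) to 8.27 (*Myh2*), and the median over the 9 was 6.9. The median over all tested genes was 0.02. In edgeR the adjusted p of these 8 lay between 0.491 and 0.525. All 9 met the mean FPKM of at least 1, but 6 of them did so only through KPF 2.

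Without KPF 2, the fitted differences of 8 of the 9 genes were below 0. *Acta1* stood at -2.04 ± 0.80 (SE, unadjusted p = 0.0361), *Ckm* at -2.40 ± 0.94 (unadjusted p = 0.0353) and *Myh1* at -2.02 ± 0.82 (unadjusted p = 0.0401) in edgeR's test, each past the call threshold in the lower direction but below the FPKM minimum, so with no adjusted p. These 3 rest on 1 to 6 reads a library in KPF and 7 to 39 in WPF. *Mylpf* was the exception in direction, at 0.90 ± 0.41 (SE, edgeR unadjusted p = 0.0606, adjusted p = 0.543). *Tnni2* at -0.15 ± 0.66 and *Myh2* at -0.18 ± 0.73 were close to 0 with an SE several times the difference. *Tnnt3* stood at -1.45 ± 0.81 (edgeR adjusted p = 0.592) and *Mb* at -2.46 ± 1.31, neither called. For *Myh7* no fold is given, since KPF 1 and KPF 3 had 0 reads. Of the 3 contractile genes still above the FPKM minimum, none was called, beside 4.45% of all tested genes called lower in that fit.

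**Figure D2:**
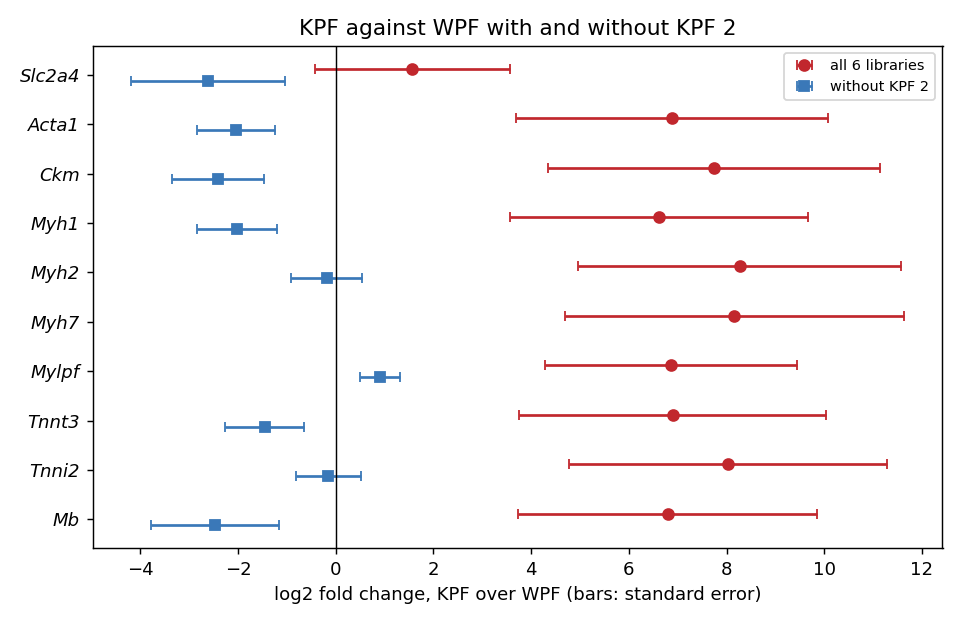
Fitted log2 difference between KPF and WPF (points, with SE as bars) for the 10 genes with all 6 libraries and without KPF 2. With all libraries the 9 contractile genes lie between 6.61 and 8.27, and without KPF 2 all but *Mylpf* lie below 0, with no point for *Myh7* because the remaining KPF libraries hold 0 reads.

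*Slc2a4* (ENSMUSG00000018566, chr11:69833365-69839014, minus strand) had 17, 622 and 5 reads in KPF 1, 2 and 3 and 89, 165 and 2 reads in WPF 2, 3 and 4. In CPM these were 1.62, 55.0 and 0.48 for KPF and 7.69, 11.6 and 0.117 for WPF. KPF 2 was thus the highest library here too, at 4.75-fold above WPF 3, but WPF 3 and WPF 2 stood well above the remaining 3, with 95% counting intervals of 141 to 192 reads in WPF 3, 71.5 to 110 in WPF 2, 9.9 to 27.2 in KPF 1, 1.62 to 11.7 in KPF 3 and 0.242 to 7.22 in WPF 4. The order of the levels was KPF 2, WPF 3, WPF 2, KPF 1, KPF 3 and WPF 4, given as a description since these reads chose the gene. The mean was 19.0 ± 31.2 CPM in KPF and 6.47 ± 5.83 CPM in WPF (SD, n = 3 each). The fitted log2 difference was 1.57 ± 2.0 (SE) with all libraries and -2.61 ± 1.57 without KPF 2, so its direction rested on that library.

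*Slc2a4* and the contractile genes were not in a fixed ratio. In KPF 2 there were 0.977 *Slc2a4* reads for each 100 contractile reads. The ratio was 18.7 in KPF 1, 6.49 in KPF 3, 42.8 in WPF 2, 93.2 in WPF 3 and 1.8 in WPF 4. At the KPF 2 ratio, the contractile reads of WPF 2 would go with 2.03 reads of *Slc2a4* and those of WPF 3 with 1.73 reads, and the reads seen were 43.8-fold and 95.4-fold those values. For KPF 1 the same ratio gave 0.889 reads, of which 17 were seen, and for WPF 4 it gave 1.08 reads, of which 2 were seen. As a share of the reads in KPF 2, *Slc2a4* reached 14.3% in WPF 2 and 26.5% in WPF 3, while the median contractile gene reached 0.317% and 0.309% and none exceeded 0.597%. The contractile genes were at trace levels in the libraries where *Slc2a4* was at an intermediate level. These ratios use the reads that chose *Slc2a4*, and the values to compare with rest on KPF 2 alone, so they are a description only. Which cells gave the *Slc2a4* reads was not tested.

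**Figure D3:**
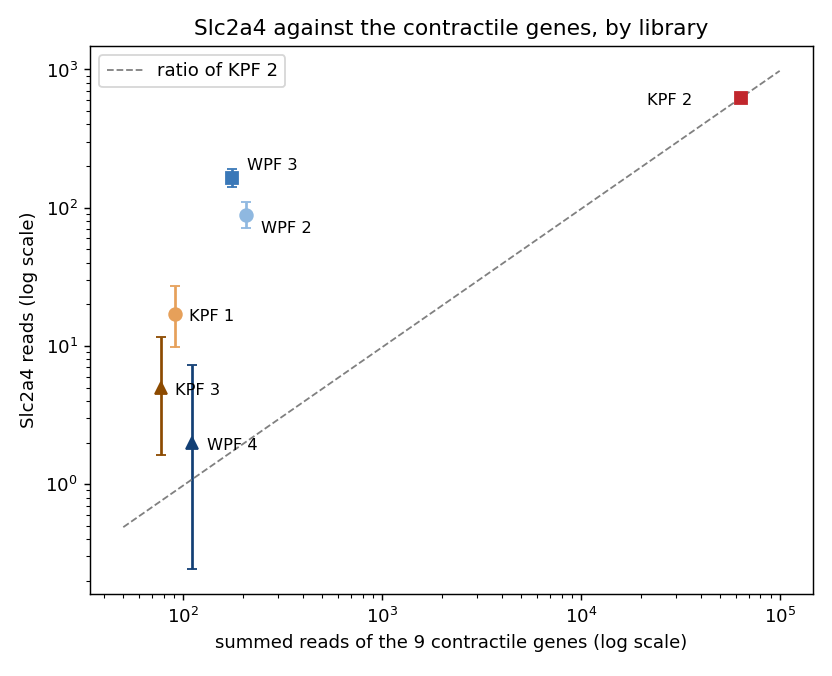
*Slc2a4* reads against the summed reads of the 9 contractile genes, 1 point per library, both axes logarithmic. Bars are 95% counting intervals of *Slc2a4*, and the dashed line marks the ratio of KPF 2. KPF 2 lies at 63651 contractile reads and 622 *Slc2a4* reads. The other 5 libraries lie between 77 and 208 contractile reads, and *Slc2a4* runs from 2 to 165 reads among them.

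Further skeletal muscle genes were examined in 5 lists of 42 genes in all. Of these, 41 were highest in KPF 2 and 36 were at least 10-fold above each other library there. The exception was *Car3*, a carbonic anhydrase that liver also makes, with 3073, 19419 and 25563 reads in KPF and 8514, 12789 and 24339 in WPF. Among the 36 tested genes 7 were called, all higher in KPF (19.4%, beside 5.18% over all genes). Only 7 of the 42 genes met the FPKM minimum without KPF 2, so most of the 36 were tested because of that library. The called share and fitted differences of those are a description of it. Of the 7, *Tpm2*, *Tnnc1* (2.08, edgeR unadjusted p = 0.0432) and *Des* (1.85, unadjusted p = 0.0263) were called higher without KPF 2. *Neb*, *Eno3*, *Cox7a1* and *Car3* were not. Over all genes, 537 of 10745 were called higher in that fit. In CPM, KPF 3 lay within the WPF range for *Tnnc1* and *Des*, and KPF 1 lay above it.

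Of the other fast-fibre genes, 2 of 6 tested were called higher, *Mybpc2* and *Tpm2*. *Mybpc2* met the FPKM minimum only through KPF 2, so its call is a description of that library. Over all tested genes 5.18% were called higher, the share to set beside this list and the slow-fibre list. *Tnnc2*, the calcium-binding troponin subunit of fast fibres, had 1, 2020 and 1 reads in KPF and 7, 2 and 2 in WPF. *Myl1*, an alkali light chain of fast myosin, had 11, 3958 and 4 reads in KPF and 14, 9 and 4 in WPF. *Tpm2*, a tropomyosin found in muscle of several kinds, had 517, 9632 and 483 reads in KPF and 311, 331 and 605 in WPF, and was called with all libraries (3.47 on the log2 scale, unadjusted p = 0.0404 in edgeR) and without KPF 2 (0.74, unadjusted p = 0.0181). Of the slow-fibre genes, 1 of 5 tested was called higher, *Tnnc1*, the troponin C of slow and cardiac fibres, with 119, 1303 and 19 reads in KPF and 31, 19 and 12 in WPF. *Myl2*, the regulatory light chain of slow fibres and the ventricle, had 3, 2443 and 1 reads in KPF and 5, 3 and 0 in WPF. *Tnnt1*, the slow counterpart of *Tnnt3*, had 38, 1624 and 9 reads in KPF and 21, 17 and 23 in WPF, and the slow light chain *Myl3* had 378 reads in KPF 2 and 0 to 3 elsewhere. Fast and slow genes were both present in KPF 2, and the fast group summed to 1520 CPM there and the slow group to 591 CPM.

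Of the sarcomere scaffold genes, 3 of 10 tested were called higher, *Ldb3*, *Des* and *Klhl41*. *Ldb3* and *Klhl41* met the FPKM minimum only through KPF 2, so their calls are a description of that library. The share called higher over all tested genes was 5.18%, to set beside this list and the energy genes. *Tcap*, which caps the giant protein titin, had 10, 7647 and 4 reads in KPF and 12, 6 and 4 in WPF. The Z-disc genes *Actn2* and *Myoz1* had 1249 and 529 reads in KPF 2, with at most 5 and 3 elsewhere. *Des*, the intermediate filament of muscle, had 565, 5495 and 105 reads in KPF and 121, 125 and 125 in WPF, so that KPF 1 was also above the WPF libraries. *Neb*, the nebulin of the thin filament, was present in every library, with 377, 2253 and 933 reads in KPF and 325, 648 and 1110 in WPF. None of 6 tested calcium-handling genes was called, yet *Atp2a1*, the calcium pump of fast fibres, had 1, 4277 and 6 reads in KPF and 12, 22 and 7 in WPF, and *Pvalb*, the calcium buffer parvalbumin, had 1, 1094 and 0 reads in KPF and 0, 2 and 2 in WPF. *Sln*, the sarcolipin that restrains the calcium pump, had 755 reads in KPF 2 and at most 2 elsewhere, and *Casq1*, the calcium store protein of fast fibres, had 520 and 5 to 34. Of the energy genes, 1 of 9 tested was called higher, *Cox6a2*, which met the FPKM minimum only through KPF 2. *Cox6a2*, a muscle subunit of cytochrome oxidase, had 5, 2112 and 2 reads in KPF and 2, 1 and 0 in WPF. *Cox8b*, another such subunit, had 1506 reads in KPF 2 and at most 8 elsewhere, and *Pgam2*, the muscle phosphoglycerate mutase, had 2268 and at most 6. The myogenic transcription factors were below the FPKM minimum, and their reads also fell in KPF 2, with 16 of *Myod1*, 20 of *Myf6*, 8 of *Myog* and 3 of *Myf5* there and 0 in each other library. *Mef2c*, which endothelial and immune cells also make, had 382 reads in KPF 2 and 23 to 37 elsewhere, and it passed the call threshold without an adjusted p (edgeR unadjusted p = 0.0488).

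The transcripts of other muscle types did not share this distribution. The cardiac *Myh6* had 0, 2 and 2 reads in KPF and 0, 0 and 4 in WPF, *Nppb* had 0 reads in all libraries and *Nppa* at most 2. The 10 cardiac genes summed to 11.9 CPM in KPF 2 and to 29.5 CPM in KPF 1, and neither of the 2 tested was called. *Actc1*, an actin of heart that skeletal muscle also makes, was among the 2 that were highest in KPF 2, at 29 reads beside 0 to 3 elsewhere, and *Myl7*, an atrial light chain, was the other, at 19 beside 2 to 14. *Tnni3*, the cardiac troponin I, was highest in WPF 4 (122 reads beside 12 to 44). *Tnnt2*, the cardiac troponin T, was highest in KPF 1 (257 reads beside 10 to 34). *Actc1*, *Tnnt2* and *Ryr2* lay below the FPKM minimum and passed the call threshold in the higher direction, with no adjusted p. The 9 smooth muscle genes summed to 161 CPM in KPF 1, 82.4 CPM in KPF 2, 31.5 CPM in KPF 3 and 19.5 to 37.4 CPM in WPF, so KPF 1 was the high library. *Acta2*, the smooth muscle actin of vessels and stellate cells, had 563, 166 and 48 reads in KPF and 102, 171 and 51 in WPF. Of the 6 tested, *Smtn*, a protein of contractile smooth muscle, was called higher (1.35 ± 0.25, edgeR unadjusted p = 0.000563, adjusted p = 0.358). Over all tested genes 5.18% were called higher. *Synpo2*, a Z-disc protein that skeletal muscle makes as well, lay below the FPKM minimum, passed the threshold (edgeR unadjusted p = 0.0158) and had 268 reads in KPF 2 and 4 to 26 elsewhere. *Myl9* had 191, 89 and 41 reads in KPF and 56, 86 and 40 in WPF, and *Tagln* 73, 31 and 27 and 31, 66 and 21. The non-muscle counterparts of these genes, such as *Actb* and *Myh9*, summed to 813 CPM in KPF 2 and 990 to 1300 CPM elsewhere, with *Actb* itself at 407 CPM in KPF 2 and 579 to 804 CPM elsewhere, and none of the 9 tested was called.

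**Figure D4:**
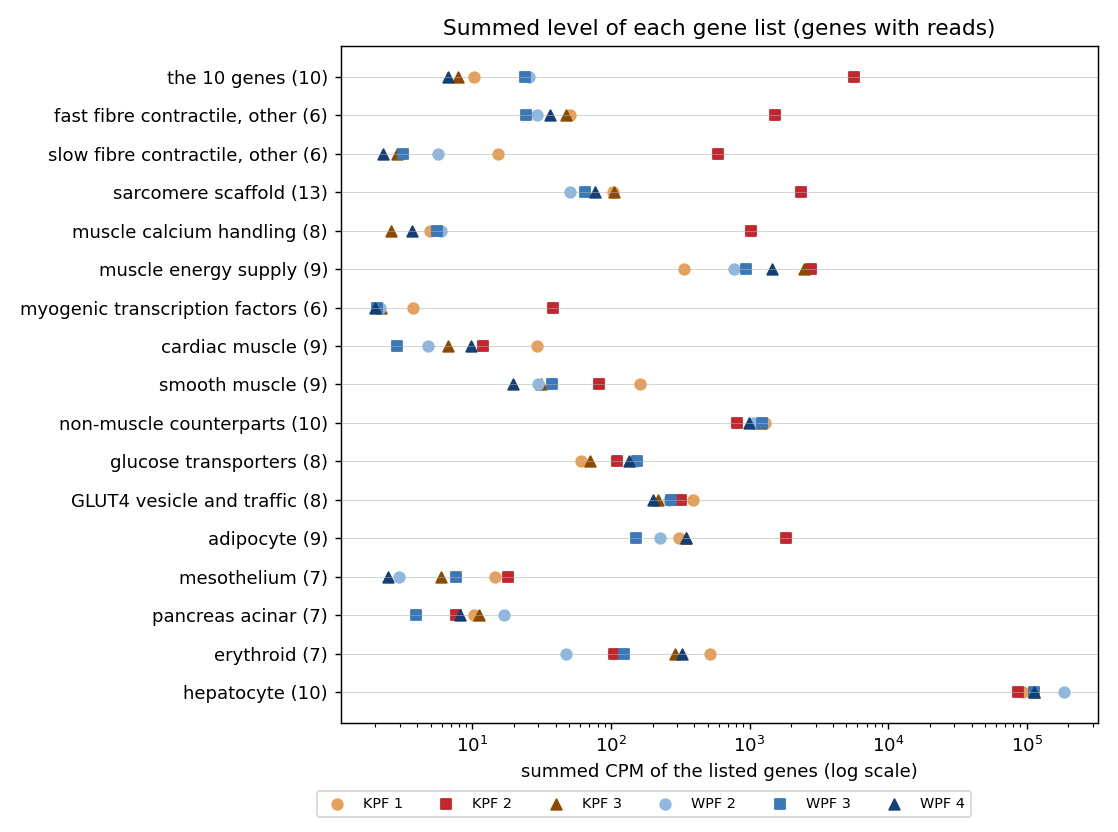
Summed CPM of each gene list in each of the 6 libraries, on a log axis. The skeletal muscle lists peak in KPF 2, whereas the cardiac and smooth muscle lists peak in KPF 1 and the non-muscle counterparts stay between 813 and 1300 CPM.

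Markers of other tissues that may lie beside the liver were read in the same way. The 10 adipocyte genes summed to 1830 CPM in KPF 2 and 152 to 350 CPM elsewhere, but most of this was *Pck1*, a gluconeogenic enzyme that liver makes in quantity, with 19458 reads in KPF 2 and 1841 to 5360 elsewhere. All 9 adipocyte genes with reads were highest in KPF 2. The defining markers were low, with 14 reads of *Adipoq* and 12 of *Plin1* in KPF 2, at most 3 and 9 elsewhere, and 0 reads of *Lep* in all libraries. *Cfd*, the complement factor adipsin, had 44, 195 and 13 reads in KPF and 0, 2 and 0 in WPF. It was the 1 gene called of 4 tested (7.06 ± 1.43 on the log2 scale, edgeR unadjusted p = 0.00173, adjusted p = 0.410). Over all tested genes 5.18% were called higher, the share to set beside this list and the mesothelium list. Without KPF 2 *Cfd* was still called higher (5.59 ± 1.1, edgeR unadjusted p = 0.00109, adjusted p = 0.335). *Plin1*, *Retn* and *Cidea*, below the FPKM minimum, also passed the threshold in the higher direction, with and without KPF 2. *Retn*, the resistin of fat, had 4, 43 and 8 reads in KPF and 0, 1 and 0 in WPF. The 7 mesothelium genes summed to 18.1 CPM in KPF 2 and 14.5 CPM in KPF 1, and to 2.46 to 7.59 CPM elsewhere. Of 2 tested, *Msln* was called (2.16 ± 0.73, edgeR adjusted p = 0.479), and it met the FPKM minimum only through KPF 2. *Upk3b* and *Upk1b* passed the threshold below the FPKM minimum. The 8 pancreas genes were in sum highest in WPF 2 (16.9 CPM). *Pnlip* had 40, 0 and 1 reads in KPF and 57, 1 and 0 in WPF. The 7 erythroid genes summed to 105 CPM in KPF 2, within the 47.5 to 518 CPM of the others, and none of the 5 tested was called, while *Slc4a1* passed the threshold below the FPKM minimum. The part of these other tissues in the KPF 2 values was not tested.

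KPF 2 also carried more library-specific transcripts than the rest. With a minimum of 10 reads, 251 genes were at least 10-fold above each other library in KPF 2, beside 23 in KPF 1, 4 in KPF 3, 0 in WPF 2, 1 in WPF 3 and 3 in WPF 4. Together they took 1.6% of the reads of KPF 2. They were selected for being high in that library, so their calls between the groups are not counted. Over all genes, 994 were called with KPF 2 and 1015 without it, and 610 were called both times.

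Among the other glucose transporters, *Slc2a2* was the 1 called of 4 tested, beside 9.15% of all tested genes called in either direction. *Slc2a2*, the hepatocyte transporter GLUT2, had 237, 666 and 265 reads in KPF and 1368, 1791 and 1393 in WPF, and every KPF library lay below every WPF library. Its log2 difference was -1.61 ± 0.40 (SE, n = 3, edgeR unadjusted p = 0.00396, adjusted p = 0.425), and -2.18 ± 0.30 without KPF 2 (unadjusted p = 0.00012, adjusted p = 0.244), so it was called lower both times. *Slc2a1*, the widely expressed GLUT1, had 138, 155 and 133 reads in KPF and 97, 93 and 201 in WPF and was not called (0.57, edgeR adjusted p = 0.500). In CPM its KPF libraries (12.8 to 13.7) all lay above its WPF libraries (6.53 to 11.8). The share of all genes whose groups did not overlap was not counted, so the separation of *Slc2a1* and of *Slc2a2* is a description only. *Slc2a8* (-0.01) and *Slc2a9* (0.15 on the log2 scale) completed the 4 transporters tested and were not called. *Slc2a12*, below the FPKM minimum, was also highest in KPF 2, with 0, 12 and 0 reads in KPF and 2, 2 and 3 in WPF. None of the 4 tested genes for GLUT4 vesicles and their traffic (*Stx4a*, *Aspscr1*, *Vamp2* and *Sort1*) was called, and their median difference was 0.36. *Tbc1d4*, the insulin-regulated brake on GLUT4 traffic, was below the FPKM minimum and had 173 reads in KPF 2 and 18 to 57 elsewhere.

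The genes whose pattern was most like the mean of the 9 contractile genes over the 6 libraries were themselves genes of muscle in part. By Pearson's r of log2(CPM + 1) among 16257 genes with at least 10 reads in a library, the first was *Cavin4*, a caveolar protein of muscle, with 0, 102 and 0 reads in KPF and 3, 2 and 0 in WPF. *Ckmt2*, *Mybpc1*, *Tnnc2* and *Myot* were also among the first 10, with r of at least 0.999, and the rest were *Gm15943*, *Tmem216*, *Tmem117*, *Sypl2* and *Myadml2*. Any gene that is high in KPF 2 and even elsewhere scores this way, since the 6 points are a single high library and 5 low ones. The 10 genes most like *Slc2a4* were *Echdc2* (r = 0.992), *Fam160a2*, *Ccdc151*, *Mrps16*, *Shc2*, *Zfp628*, *Lpar6*, *Fastkd1*, *Flt1* and *Hdhd5* (r = 0.969). None of them was in a muscle list. That search used the reads that chose *Slc2a4* and ranked 16257 genes on 6 points, so its list is a description only. *Echdc2* ran from 4765 to 8775 reads, beside 2 to 622 for *Slc2a4*.

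Beside the lipogenic genes that ChREBP is known to regulate, *Slc2a4* shared the 2 high WPF libraries but not KPF 2. These genes were chosen after their values were seen. *Fasn*, the fatty acid synthase, stood at 146.8, 175.9 and 161.4 CPM in KPF and 2540.1, 2085.3 and 241.3 CPM in WPF. *Elovl6*, which lengthens fatty acids, stood at 40.2, 97.2 and 26.3 CPM in KPF and 1107.2, 1771.0 and 50.4 CPM in WPF. *Pklr*, the liver pyruvate kinase, stood at 11.1, 18.3 and 11.9 CPM in KPF and 148.8, 137.0 and 24.5 CPM in WPF. WPF 4 lay near the KPF libraries for all 3. For *Slc2a4*, WPF 4 was the lowest library at 0.117 CPM, below KPF 1 (1.62 CPM) and KPF 3 (0.48 CPM). KPF 2 was low for all 3 but the highest for *Slc2a4*. Pearson's r with *Slc2a4* was 0.31 for *Fasn*, 0.52 for *Elovl6* and 0.35 for *Pklr* over the 6 libraries, and 0.90, 0.95 and 0.87 over the 5 without KPF 2, given as a description of points that share 2 high libraries. Over those 5 libraries r was lower for *Thrsp* (0.70), *Acacb* (0.65) and *Mlxipl* itself (0.30), and it was 0.82 to 0.93 for *Acaca*, *Me1*, *Acly* and *Scd1*. In *Mlxipl*, KPF 3 and WPF 4 were near WPF 2, at 848.7, 879.1 and 961 CPM.

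**Figure D5:**
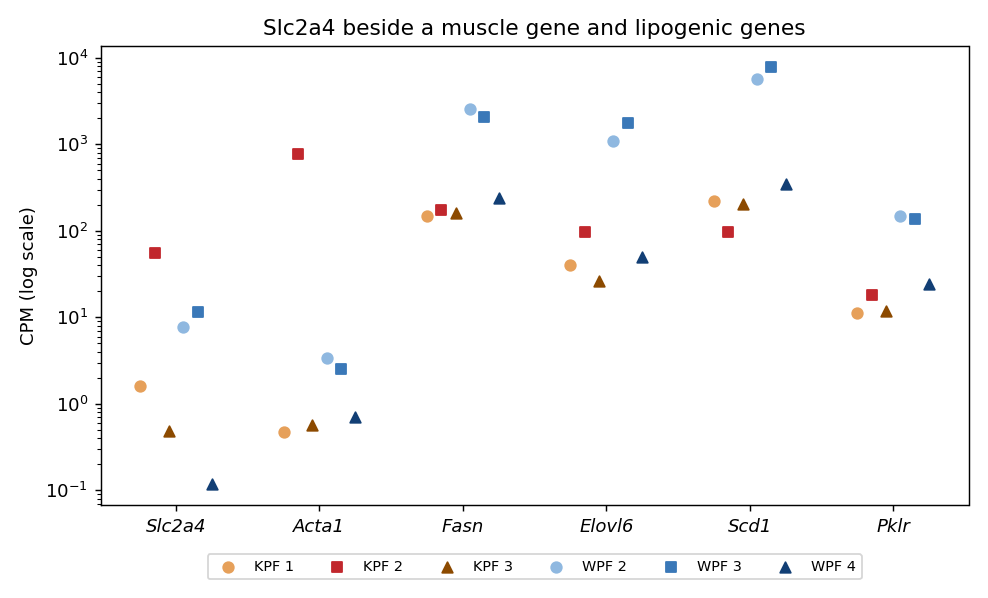
CPM of *Slc2a4*, of the muscle gene *Acta1* and of lipogenic genes in each library, on a log axis. For *Slc2a4* and the lipogenic genes, WPF 2 and WPF 3 are high and WPF 4 is low. KPF 2 is high for *Slc2a4* (55.0 CPM) but not for *Fasn* (175.9 CPM). *Acta1* is at 770 CPM in KPF 2 and 0.476 to 3.37 CPM elsewhere.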

How the data were processed

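Liver poly(A) RNA of 3 KPF and 3 WPF mice was sequenced, and the authors deposited read counts and FPKM for 56691 genes. The submitters' processing notes name cutadapt 1.9.1, HISAT2 2.2.1, HTSeq 0.6.1, DESeq2 and GRCm39. The deposited FPKM equal counts divided by exonic length and library total (100% of values within 0.0051). Symbols were matched to 52073 identifiers. The deposited counts were fitted with edgeR 4.0.16 (R 4.3.3, TMM, robust quasi-likelihood, Benjamini-Hochberg adjustment over genes averaging at least 1 FPKM). Listed genes under this minimum were fitted with the rest and have no adjusted p. CPM are TMM-scaled. DESeq2 1.42.0 and limma 3.58.1 served as alternatives. The scripts were tested on simulated data. Counting intervals are exact Poisson at 95%.

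The members and lists were chosen with earlier results of these data known. The genes to name were all 10 members, the top 4 genes by mean FPKM of each other list (of lists from other tissues, only some are given), any listed gene called, and the 10 genes most like *Slc2a4* or the contractile mean, with a few others named after their values were seen. Deviations of same-numbered libraries correlated at 0.03 (number 2) and 0 (number 3), so the libraries were not paired. No replicates were duplicates (chi-square per gene of 39.6 to 116).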

Additional observations from a re-analysis of the deposited data

How the results depend on the processing

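The count of called contractile genes, 1 of 9, was the least stable value. It was 0 with no filter, with scaling by library totals, with limma on log2(FPKM + 1) or log2(FPKM + 0.1), 3 of the 8 genes left with a mean FPKM of at least 5, and 0 to 9 on leaving out 1 library. It was 9 without KPF 1 and without KPF 3, 3 without KPF 2, and 0 without any 1 WPF library. The 3 without KPF 2 were lower in KPF and lay below the FPKM minimum, and of the 3 genes still above it 0 were called. DESeq2 gave no p for any of the 9 genes, whose log2 differences were 6.6 to 8.27. The call count over all genes was 2206 with no filter, 429 with a mean FPKM of at least 5, and 541 to 1612 on leaving out 1 library (1612 without KPF 3, 622 without WPF 2, 541 without WPF 3). With library totals it was 1005, of which 270 were higher and 735 lower, beside 563 and 431 with TMM. The split was 235 higher to 541 lower in limma at a pseudocount of 1 FPKM, and 275 to 694 at 0.1 FPKM. Library totals moved the median of all genes from 0.02 to -0.12.

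Leaving out KPF 2 turned the direction of *Slc2a4* and of each contractile gene but *Mylpf*. Over the 6 fits that left out 1 library, the log2 difference ran from -2.61 to 2.31 for *Slc2a4*, -2.04 to 7.47 for *Acta1*, -2.40 to 8.34 for *Ckm*, -2.02 to 7.19 for *Myh1*, -0.18 to 8.86 for *Myh2*, 0.90 to 7.45 for *Mylpf*, -1.45 to 7.49 for *Tnnt3*, -0.15 to 8.62 for *Tnni2* and -2.46 to 7.39 for *Mb*. For *Myh7* it ran from -3.77, fitted with KPF at 0 reads and no bound, to 9.79. With the replicate number as a block, which pairs only libraries that share a number, *Slc2a4* was -0.10, *Myh7* was called (7.75, edgeR unadjusted p = 0.0106) and *Mylpf* was not (4.87, unadjusted p = 0.327), while 1 contractile gene and 1222 genes in all were called. The cause of these changes was not tested. Traces of 0 to 47 reads per library set the precision outside KPF 2.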

Other observations

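Without KPF 2, the genes most like *Slc2a4* over the 5 remaining libraries, a search added after the data were seen, included *Irgq* (r = 1.000), *Eml3* (r = 0.998) and *Elovl5* (r = 0.996), among 15808 genes. These 5 points share 2 high libraries, WPF 2 and WPF 3, so this list too is a description only.

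*Tpm1*, a tropomyosin in none of the lists and chosen after its values were seen, had 497, 7601 and 280 reads in KPF and 527, 668 and 693 in WPF.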
